A study of Mus musculus with 12 samples.

Results

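The insulin-like growth factor (IGF) system of MC38 tumors was described by the transcripts of 10 genes: the ligands Igf1 and Igf2, the receptors Igf1r, Igf2r, Insr and Ghr, the adaptors Irs1 and Irs2, and the adaptors Grb10 and Grb14. They were picked by symbol, as the target and the inputs of PB-020, an inhibitor of the IGF-1 receptor, from a table of 18211 mouse genes, and all 10 passed the low-count filter that kept 13563 genes for testing. MC38 is a mouse colorectal adenocarcinoma line, and its cells were grown under the skin of female C57BL/6 mice that were 5 weeks old when purchased. RNA from 12 whole tumors was sequenced, 3 from each of 4 groups. All mice carried the same cells, and treatment groups were formed on day 7 of tumor growth. The CK group was given vehicle, PB-020 mice were gavaged with 50 mg/kg every day, and anti-PD-1 mice were injected with 200 μg of the antibody at each of 4 doses from day 9 to day 18. PB-020+anti-PD-1 mice received both agents at these doses. The antibody blocks PD-1, an inhibitory receptor of activated T cells. Each tumor is a mixture of MC38 cells and host cells of the same genome, so a gene cannot be assigned to either, and in such bulk tissue fewer cells of a type and less RNA per cell cannot be told apart.

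IGF1 and IGF2 bind the IGF-1 receptor, a tyrosine kinase closely related to the insulin receptor encoded by Insr. Both receptors recruit the docking proteins IRS1 and IRS2, which pass the signal to PI3K and AKT, whereas GRB10 and GRB14 bind the activated receptors and restrain them. The IGF2 receptor has no kinase, removes IGF2 from the cell surface and sorts lysosomal enzymes that carry mannose 6-phosphate, and the growth hormone receptor drives Igf1 transcription through JAK2 and STAT5, above all in the liver. In colorectal cancer the pathway is known for supporting growth and resistance to therapy.

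The libraries held 16545394 to 17217035 expected counts (median 16927043), and depth differed little between them. Markers of colon epithelium were near absent although MC38 is of colorectal origin. The 10 such genes in the table summed to 7.43 to 11.1 FPKM (fragments per kilobase of transcript scaled to the library total). Only 3 of them passed the filter, Cdh1, Lgals4 and Muc2. Cdx2 was listed at 0 in 10 of 12 tumors, Krt18 in 7 and Cdx1 in 6. Cdh1 (1.59 to 3.96 FPKM) and Lgals4 (4.30 to 8.04 FPKM) were the exceptions. Anti-PD-1 tumor 1 stood apart, with a summed level of 12 skeletal muscle markers of 664 FPKM, against 11.7 to 70.4 FPKM in the 11 other tumors, none of the 12 markers being at 0. Its counts also differed most from those of its group, with a chi-square per degree of freedom of 33.7 and 28.2 against tumors 2 and 3, where the 10 other pairs within groups lay between 5.34 and 15.2. Values of the members that this tumor moves most are also given without it. Tests were edgeR quasi-likelihood tests over all 12 tumors, with p-values adjusted over the 13563 genes by the Benjamini-Hochberg method, and a gene was called at an adjusted p under 0.05. The labels give the tumors as separate samples, and the p-values measure the spread between them.

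On the FPKM scale, which corrects for gene length, the levels of the 10 genes spanned a wide range. Ghr (mean 18.6 FPKM over the 12 tumors) and Igf2r (18.4 FPKM) were highest and could not be ordered, as Ghr was the higher in 6 of 12 tumors. Irs2 (14.2 FPKM), Igf1r (10.7 FPKM) and Insr (5.76 FPKM) followed, each above the next in 12 of 12 tumors. Irs1 (2.49 FPKM), Grb14 (2.34 FPKM), Igf1 (2.0 FPKM) and Grb10 (1.95 FPKM) were close to each other, and neighbours in this order exchanged places between tumors. Igf2 was lowest in every tumor, with a mean of 0.291 FPKM.

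**Figure D1:**
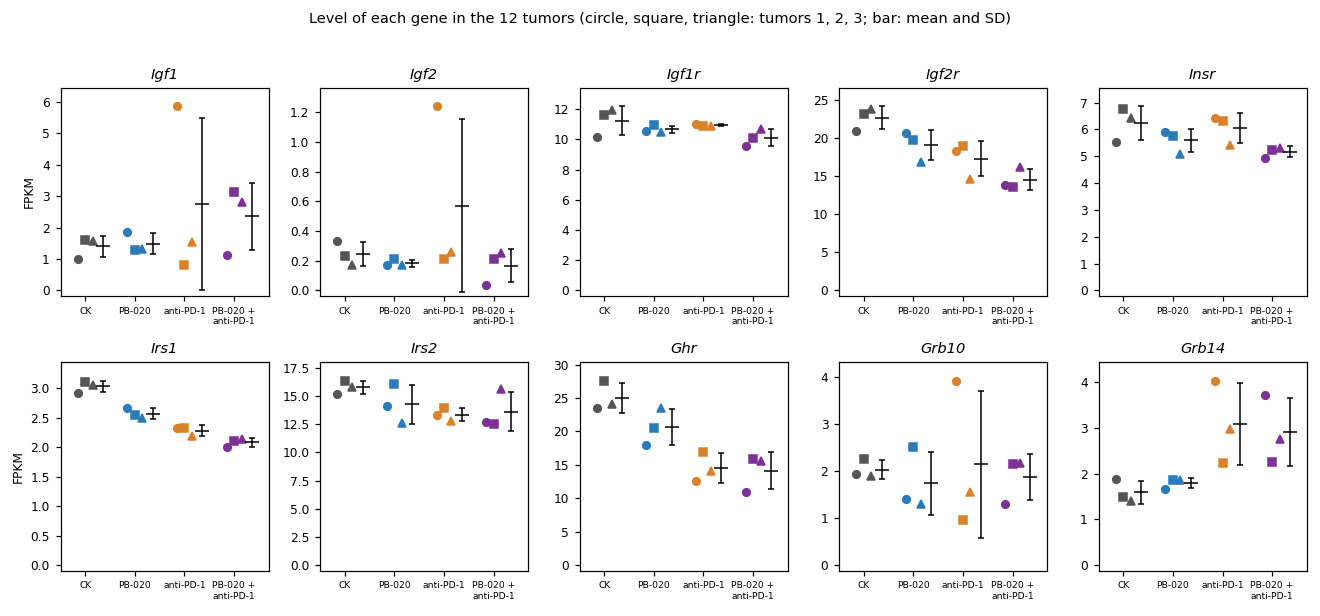
FPKM of the 10 genes in the 12 tumors, 1 panel a gene, with circles, squares and triangles for tumors 1, 2 and 3 of a group and a black bar for the group mean and SD (n = 3). Irs1, Igf2r and Ghr are lower than CK in both groups given anti-PD-1, which overlap for Igf2r and Ghr, and Grb14 is higher in both. Anti-PD-1 tumor 1 is the highest point for Igf1 (5.86 FPKM), Igf2 (1.24 FPKM), Grb10 (3.91 FPKM) and Grb14 (4.02 FPKM).

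Against CK, 4 of the 10 genes were called in both groups that received anti-PD-1, and they were the same genes: Irs1, Igf2r and Ghr were lower and Grb14 was higher. The 2 comparisons share the CK tumors and are therefore not independent. In anti-PD-1 against CK, 3 genes were lowered, where 4.08% of all genes tested were lowered, and 1 was raised, where 4.18% were raised. In PB-020+anti-PD-1 against CK, 3 were lowered and 1 raised, where 9.6% of all genes were lowered and 8.35% raised. The members' median log2 change was -0.02 and -0.22 in these comparisons, beside 0.00047 and -0.0026 over all genes tested. PB-020 alone gave 0 calls by edgeR, among the members as among all genes (0% called). An unadjusted p under 0.05 was reached by 741 of the 13563 genes, Irs1 and Igf2r among them. That share is close to 0.05, the share that unaffected genes would give. DESeq2 called 6 genes, none of them a member.

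**Figure D2:**
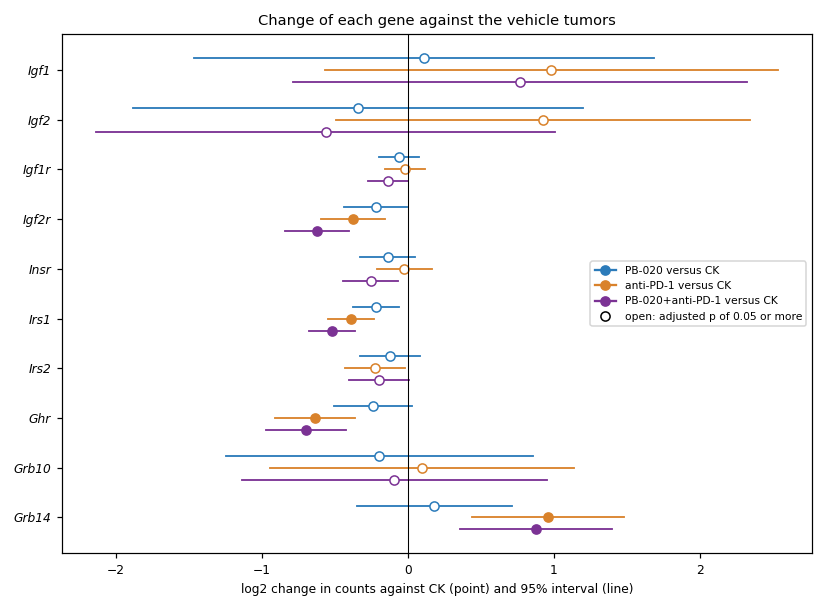
Log2 change of each gene against CK (point, edgeR on counts) with its 95% interval (line), coloured by treated group and filled where the adjusted p is under 0.05. Irs1, Igf2r, Ghr and Grb14 have filled points for both groups given anti-PD-1, and the intervals of Igf1, Igf2 and Grb10 are the widest.

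The start regions of these 4 genes are shown because they are the members that moved together. Each is 300 bases of RefSeq on GRCm38.p6, from 250 bases before to 50 after the annotated start, printed 5′ to 3′ on the minus strand, which carries all 4 genes, and capitals mark the GC box GGGCGG on either strand. Irs1 lies at chr1:82291390-82291689, Igf2r at chr17:12769657-12769956, Ghr (the first of 2 starts) at chr15:3583303-3583602 and Grb14 at chr2:65022717-65023016.
Irs1: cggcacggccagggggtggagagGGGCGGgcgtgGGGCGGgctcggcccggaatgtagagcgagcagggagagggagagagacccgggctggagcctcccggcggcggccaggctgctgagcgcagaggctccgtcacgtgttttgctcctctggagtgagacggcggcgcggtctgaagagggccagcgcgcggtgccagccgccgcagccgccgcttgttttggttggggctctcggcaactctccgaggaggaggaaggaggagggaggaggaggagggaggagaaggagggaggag
Igf2r: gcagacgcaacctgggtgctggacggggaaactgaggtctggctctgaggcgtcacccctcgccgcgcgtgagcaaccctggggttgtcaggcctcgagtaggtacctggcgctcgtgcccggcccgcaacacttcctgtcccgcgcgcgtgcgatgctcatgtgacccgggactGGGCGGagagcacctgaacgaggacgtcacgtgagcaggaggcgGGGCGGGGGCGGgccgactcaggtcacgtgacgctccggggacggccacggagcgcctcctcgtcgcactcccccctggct
Ghr: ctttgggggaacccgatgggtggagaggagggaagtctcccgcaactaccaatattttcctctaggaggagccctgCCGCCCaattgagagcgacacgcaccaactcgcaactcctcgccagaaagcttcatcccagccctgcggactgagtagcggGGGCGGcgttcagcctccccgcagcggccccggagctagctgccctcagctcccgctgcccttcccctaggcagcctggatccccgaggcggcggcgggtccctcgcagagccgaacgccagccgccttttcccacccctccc
Grb14: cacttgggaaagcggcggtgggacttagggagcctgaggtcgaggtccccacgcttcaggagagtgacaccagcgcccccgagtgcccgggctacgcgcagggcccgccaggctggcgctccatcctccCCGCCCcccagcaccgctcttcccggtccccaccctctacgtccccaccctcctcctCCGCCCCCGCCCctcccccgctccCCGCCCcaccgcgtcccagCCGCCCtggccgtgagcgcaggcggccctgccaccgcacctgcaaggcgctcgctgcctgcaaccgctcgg

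The GC box, the recognition sequence of SP1-type factors, occurred 2 times in the Irs1 region, 3 times in Igf2r, 2 times in Ghr and 5 times in Grb14, and 35.7% of 32851 promoters of this length held at least 1. The Igf2r boxes at -31 and -25 and the Grb14 boxes at -64 and -58 adjoin each other. The regions held 28, 34, 23 and 30 CpG dinucleotides respectively, where the median promoter held 7. Among uncalled members, Igf1r held 2 boxes and 48 CpG, Irs2 1 and 41, and the first Grb10 start 5 and 45. Igf1 held 0 and 6, the second Grb10 start 0 and 9, and the Igf2 starts 0 to 2 and 2 to 24. The second Ghr start held 0 boxes and 8 CpG. These features were thus not particular to the 4 called genes. Neither the STAT5 motif TTCNNNGAA (8.3% of promoters) nor the FOXO core TGTTTAC (3.6%), both searched on each strand, was found in any region of the 9 members with an entry. A match is a description of the sequence alone. Insr had no entry.

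Igf1, the main growth-promoting ligand, did not pass the test in any comparison. Its level was 1.01, 1.62 and 1.58 FPKM in CK, 1.87, 1.28 and 1.31 FPKM in PB-020, 5.86, 0.82 and 1.55 FPKM in anti-PD-1 and 1.13, 3.12 and 2.81 FPKM in PB-020+anti-PD-1. The groups overlapped, and 1 anti-PD-1 tumor and 2 tumors of the combination lay above all others. The log2 change against CK was 0.98 ± 0.68 (SE) for anti-PD-1 (adjusted p = 0.391) and 0.77 ± 0.68 for PB-020+anti-PD-1 (adjusted p = 0.462, edgeR). Without anti-PD-1 tumor 1, the change with anti-PD-1 was -0.21. Igf2, the fetal ligand that is expressed from the paternal allele, had 0.33, 0.23 and 0.17 FPKM in CK, 0.17, 0.21 and 0.17 FPKM in PB-020, 1.24, 0.21 and 0.26 FPKM in anti-PD-1 and 0.04, 0.21 and 0.25 FPKM in PB-020+anti-PD-1. All groups overlapped apart from anti-PD-1 tumor 1, the 2 other anti-PD-1 tumors lay close to the higher 2 of the combination, and the lowest value rested on an expected count of 2. The change with anti-PD-1 was 0.92 ± 0.66 (adjusted p = 0.386), or -0.42 without that tumor, and the change with the combination was -0.56 ± 0.73 (adjusted p = 0.614, edgeR). The -0.42 rested on expected counts of 6 and 11, against 13, 12 and 10 in CK. On the FPKM scale these 2 anti-PD-1 tumors had a mean of 0.235, beside 0.243 in CK. Neither ligand can be called different at this spread: the 95% interval with the combination ran from -0.78 to 2.33 for Igf1 and from -2.14 to 1.01 for Igf2.

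Igf1r, which encodes the target of PB-020 (chromosome 7, 67952257 to 68233668, GRCm38.p6), was the most even of the 10 genes. Its level was 10.14, 11.63 and 11.93 FPKM in CK, 10.55, 10.94 and 10.51 FPKM in PB-020, 11.01, 10.87 and 10.90 FPKM in anti-PD-1 and 9.53, 10.09 and 10.68 FPKM in PB-020+anti-PD-1. All treated groups overlapped CK, and the highest of the 12 values was 1.25 times the lowest. Log2 changes against CK were -0.06 (95% interval -0.19 to 0.08) for PB-020, -0.02 (-0.16 to 0.12) for anti-PD-1 and -0.13 (-0.27 to 0.0035) for the combination (adjusted p = 0.157). Insr had its lowest values in the combination, 4.93, 5.23 and 5.32 FPKM against 5.54, 6.76 and 6.41 FPKM in CK, 5.90, 5.76 and 5.10 FPKM in PB-020 and 6.44, 6.30 and 5.43 FPKM in anti-PD-1. The combination did not overlap CK or anti-PD-1, and its log2 change against CK was -0.25 ± 0.09 (adjusted p = 0.0617, edgeR). That gene was called when only the CK and combination tumors were fitted (adjusted p = 0.045), and without CK tumor 1 (0.0345) or anti-PD-1 tumor 1 (0.0444). The ratio of Igf1r to Insr was 1.80 ± 0.07 in CK and 1.96 ± 0.04 in the combination (SD, n = 3), with 1.92 ± 0.14 in PB-020 and 1.81 ± 0.17 in anti-PD-1.

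Igf2r, the clearance receptor of IGF2, was lowered in both groups given anti-PD-1. Its level was 20.95, 23.17 and 23.89 FPKM in CK, 20.68, 19.82 and 16.93 FPKM in PB-020, 18.26, 19.03 and 14.64 FPKM in anti-PD-1 and 13.89, 13.60 and 16.18 FPKM in PB-020+anti-PD-1. Every treated tumor lay below the CK tumors, and the combination lay below PB-020 alone but overlapped anti-PD-1. The log2 change was -0.37 ± 0.10 with anti-PD-1 (0.773-fold, adjusted p = 0.041) and -0.62 ± 0.10 with the combination (0.651-fold, adjusted p = 0.00312). With PB-020 alone it was -0.22 ± 0.10 (unadjusted p = 0.0486, adjusted p = 0.874, edgeR). The other genes of mannose 6-phosphate sorting, M6pr, Gnptab, Gnptg and Nagpa, were not called in either comparison. When the effect of anti-PD-1 was averaged over the presence of PB-020, Gnptab (0.22 ± 0.05, adjusted p = 0.00948, edgeR) and M6pr (0.12 ± 0.04, adjusted p = 0.0485) were raised, where 11.8% of all genes were.

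Ghr, the growth hormone receptor, was lowered in both groups given anti-PD-1, by more than any other member. It had 23.43, 27.55 and 24.04 FPKM in CK, 18.03, 20.46 and 23.47 FPKM in PB-020, 12.62, 16.94 and 14.05 FPKM in anti-PD-1 and 10.97, 15.84 and 15.60 FPKM in PB-020+anti-PD-1. The 6 tumors given anti-PD-1 all lay below the 6 that were not, and 1 PB-020 tumor lay within the CK range. The log2 change was -0.64 ± 0.13 with anti-PD-1 (0.644-fold, adjusted p = 0.0133) and -0.70 ± 0.13 with the combination (0.616-fold, adjusted p = 0.00454, edgeR), and it was -0.24 ± 0.13 with PB-020 (adjusted p = 0.874). The mean FPKM was 0.581 and 0.565 times that of CK with the antibody alone and with both agents. Both lay below the folds estimated from counts. Counts per gene do not separate the full-length receptor from the growth hormone binding protein, a shorter product of the same gene.

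Irs1, the docking protein next to the receptors, was lowered in both groups given anti-PD-1 and varied little within groups (coefficient of variation 3.12% to 3.80%). Its level was 2.92, 3.10 and 3.06 FPKM in CK, 2.67, 2.54 and 2.49 FPKM in PB-020, 2.33, 2.33 and 2.18 FPKM in anti-PD-1 and 2.0, 2.10 and 2.14 FPKM in PB-020+anti-PD-1. On the FPKM scale the 4 groups did not overlap at any step of this order. As TPM, the deposited values scaled to a common total, PB-020 (4.25 to 4.60) and anti-PD-1 (3.82 to 4.46) overlapped. The log2 change was -0.39 ± 0.07 with anti-PD-1 (0.763-fold, adjusted p = 0.00998) and -0.52 ± 0.07 with the combination (0.697-fold, adjusted p = 0.00182). With PB-020 alone it was -0.22 ± 0.07, rank 116 of 13563 by p, and was not called (unadjusted p = 0.0101, adjusted p = 0.874, edgeR). Irs2, its paralog, had 15.17, 16.29 and 15.83 FPKM in CK, 14.14, 16.06 and 12.58 FPKM in PB-020, 13.33, 13.89 and 12.78 FPKM in anti-PD-1 and 12.65, 12.55 and 15.60 FPKM in PB-020+anti-PD-1. The anti-PD-1 tumors lay below CK, the other groups overlapped it, and the changes of -0.22 ± 0.10 and -0.19 ± 0.10 were not called (adjusted p = 0.155 and 0.170, edgeR). The ratio of Irs2 to Irs1 was 5.21 ± 0.04 (SD, n = 3) among CK tumors and 5.56 ± 0.67 with PB-020, and it was 5.85 ± 0.12 and 6.53 ± 0.68 with the antibody alone and with both agents.

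Grb10 and Grb14, the adaptors that restrain the receptors, differed from each other. Grb14 was raised in both groups given anti-PD-1: it had 1.88, 1.49 and 1.41 FPKM in CK, 1.66, 1.85 and 1.85 FPKM in PB-020, 4.02, 2.24 and 2.97 FPKM in anti-PD-1 and 3.71, 2.25 and 2.75 FPKM in PB-020+anti-PD-1. The 6 tumors given anti-PD-1 all lay above the 6 that were not, and CK and PB-020 overlapped. The log2 change was 0.96 ± 0.24 with anti-PD-1 (1.95-fold, adjusted p = 0.03) and 0.88 ± 0.24 with the combination (1.84-fold, adjusted p = 0.0252, edgeR). Its expected counts were low, the lowest being 43, and without anti-PD-1 tumor 1 the change with anti-PD-1 was 0.73 (adjusted p = 0.0851). Grb10, an imprinted gene, had 1.93, 2.26 and 1.89 FPKM in CK, 1.41, 2.51 and 1.30 FPKM in PB-020, 3.91, 0.97 and 1.55 FPKM in anti-PD-1 and 1.30, 2.15 and 2.16 FPKM in PB-020+anti-PD-1. All groups overlapped, and no change was called. Its log2 change with anti-PD-1 was 0.10 ± 0.46 (adjusted p = 0.916), and -0.66 without anti-PD-1 tumor 1. The ratio of Grb14 to Ghr was 0.0643 ± 0.0140 in CK and 0.0871 ± 0.0072 in PB-020, and it was 0.221 ± 0.094 with the antibody alone and 0.219 ± 0.105 with both agents (SD, n = 3). This ratio sets the raised member over the most lowered one, so it restates their changes and is no further result.

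**Figure D3:**
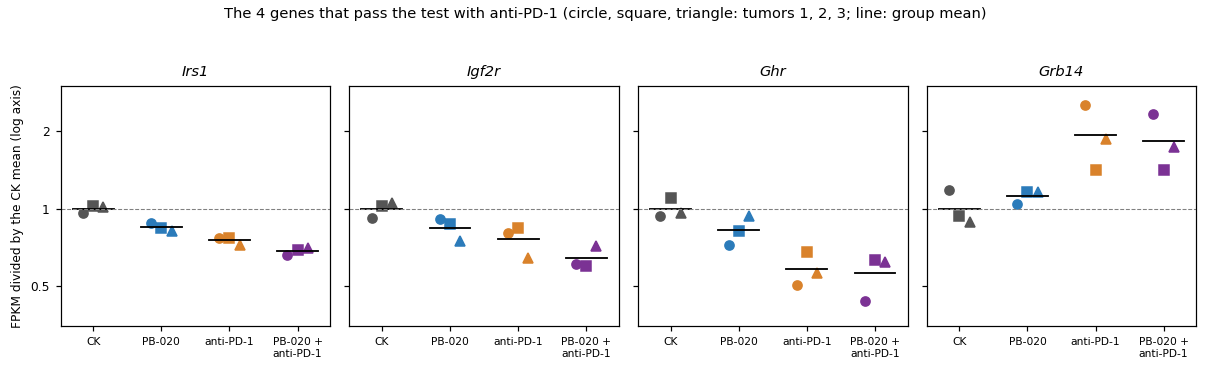
FPKM of Irs1, Igf2r, Ghr and Grb14 in each tumor divided by the CK mean of the gene, on a log axis, with circles, squares and triangles for tumors 1, 2 and 3 and a line at each group mean. The 6 tumors given anti-PD-1 lie below all CK tumors for Irs1, Igf2r and Ghr and above them for Grb14.

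The calls with anti-PD-1 alone depended on single tumors and on the groups that entered the fit. When only the CK and anti-PD-1 tumors were fitted, 0 of the 4 genes were called (adjusted p = 0.0544 to 0.0999, edgeR), and leaving out CK tumor 2, CK tumor 3, anti-PD-1 tumor 1 or anti-PD-1 tumor 3 left 0, 2, 2 and 1 calls. Igf2r also lost its call without PB-020 tumor 1 (adjusted p = 0.0518) or combination tumor 1 (0.0528), and so kept it in 6 of 12 such fits. In the combination against CK, Irs1, Igf2r and Ghr were called in 12 of 12 fits without 1 tumor, and Grb14 in 9, its call being lost without CK tumor 2, CK tumor 3 or combination tumor 1 (adjusted p = 0.0929, 0.0775 and 0.115).

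The combination was next compared with each agent alone. Against anti-PD-1, edgeR called 0 of the 10 genes and 0% of all genes, while 984 of all genes had an unadjusted p under 0.05 and DESeq2 called 1 gene. The 3 members that had such a p were Insr (-0.23 ± 0.09, unadjusted p = 0.0215), Igf2r (-0.25 ± 0.10, 0.0299) and Igf2 (-1.49 ± 0.69, 0.0486). Without anti-PD-1 tumor 1, a fit chosen after seeing the data, Igf2 was at -0.15 ± 0.57 (unadjusted p = 0.797), Insr at -0.19 ± 0.10 (0.0646) and Igf2r at -0.22 ± 0.11 (0.0768). Against PB-020, Igf2r (-0.40 ± 0.10, adjusted p = 0.0499) and Irs1 (-0.31 ± 0.07, adjusted p = 0.0419) were lowered, where 2.11% of all genes were. Both lay close to the threshold: 0 of them were called without any 1 of the CK, PB-020 or combination tumors, 1 without anti-PD-1 tumor 3, and 0 by limma on log2(FPKM + 1). In the other direction, more members were called when only the PB-020 and combination tumors were fitted, as given in the closing section. Ghr (-0.46 ± 0.13, adjusted p = 0.0638) and Grb14 (0.70 ± 0.24, adjusted p = 0.111) had changes of the direction seen against CK that were not called.

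In a factorial view of the same fit, the effect of an agent was averaged over the presence of the other. The anti-PD-1 effect was called for Igf2r (-0.39 ± 0.07), Irs1 (-0.35 ± 0.05) and Ghr (-0.55 ± 0.09), where 12.3% of all genes were lowered, and for Grb14 (0.83 ± 0.17), where 11.8% were raised. Their adjusted p-values (edgeR) were 0.00303, 0.000979, 0.00165 and 0.00466, and all 4 were called in each of the 12 fits without 1 tumor. The PB-020 effect gave 0 calls and 0% of all genes by edgeR, with 1475 genes at an unadjusted p under 0.05 and 61 called by DESeq2, none of them a member. Members with such a p were Irs1 (-0.17 ± 0.05, unadjusted p = 0.0048), Igf2r (-0.23 ± 0.07, unadjusted p = 0.006) and Insr (-0.18 ± 0.06, unadjusted p = 0.0113), all lower with PB-020. The interaction, the combination minus both agents plus CK on the log2 scale, gave 0 calls and 0% of all genes by edgeR and 0 by DESeq2, with 310 genes and 0 members at an unadjusted p under 0.05. Its estimate was 0.08 (95% interval -0.14 to 0.31) for Irs1, -0.03 (-0.34 to 0.28) for Igf2r, 0.17 (-0.21 to 0.56) for Ghr and -0.27 (-0.998 to 0.47) for Grb14. With 3 tumors a group, each of these intervals included 0. The size of a departure from the sum of both agents that could be detected was not tested.

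Other genes of the pathway were read from lists chosen by function, in the combination against CK. Of the 75 tested genes of 7 lists, 11 (14.7%) were lowered and 5 (6.67%) raised, beside the 9.6% and 8.35% of all genes. Among 9 tested ligand-binding proteins and their regulators, Igfbp3 (-0.75 ± 0.17, adjusted p = 0.0158) and Igfbp6 (-0.59 ± 0.16, 0.0276), which bind IGFs outside the cell, were lowered, and Pappa (1.79 ± 0.52, 0.0284), a protease of IGF-binding proteins, was raised. Pappa was nevertheless scarce, at 0.02 to 0.19 FPKM, whereas Igfbp4, at 254 to 426 FPKM, was the most abundant of the list and was not called. Of 7 tested genes of the growth hormone axis, Socs1, which inhibits JAK kinases, was raised (0.85 ± 0.26, adjusted p = 0.044), and 0 were lowered. Jak2, Stat5a, Stat5b and Socs2 were not called.

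Of 14 tested adaptors other than the members, 3 docking proteins were lowered, Gab1 (-0.57 ± 0.10, adjusted p = 0.00454), Frs2 (-0.40 ± 0.08, 0.00599) and Gab2 (-0.33 ± 0.10, 0.0345), and Sh2b2 was raised (0.61 ± 0.18, 0.0369). Of 21 tested genes of the PI3K, AKT and mTOR core, 18 were not called, among them Akt1, Akt2, Pik3ca and Mtor, and 3 were lowered: the regulatory subunit Pik3r2 (-0.40 ± 0.09, adjusted p = 0.0095) and the mTORC1 inhibitors Tsc1 (-0.29 ± 0.08, 0.0216) and Tsc2 (-0.30 ± 0.08, 0.0193). Of 12 brakes on the receptors and PI3K, the phosphatase Ptpn2 was raised (0.33 ± 0.08, adjusted p = 0.011), and the ubiquitin ligase Nedd4 (-0.35 ± 0.09, 0.0157), the AKT phosphatase Phlpp1 (-0.34 ± 0.09, 0.0172) and the PI3K inhibitor Pik3ip1 (-0.56 ± 0.14, 0.0161) were lowered. Igf2bp1, which binds Igf2 mRNA, was raised (0.34 ± 0.09, adjusted p = 0.0165, edgeR), the only call among 8 imprinted or Igf2-binding genes. The median log2 change of the tested genes was 0.29 for the binding proteins, 0.08 for the growth hormone axis, -0.05 for the adaptors, -0.07 for the core, -0.01 for the brakes and -0.0048 for the imprinted list, beside -0.0026 over all genes.

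**Figure D4:**
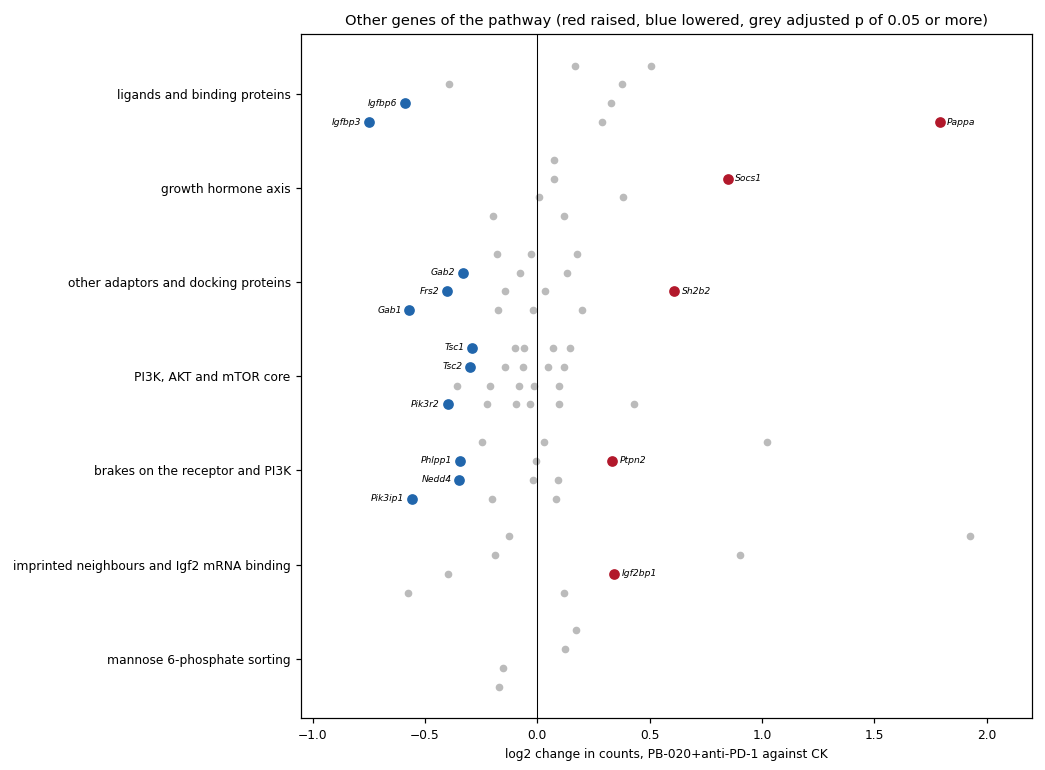
Log2 change in counts, PB-020+anti-PD-1 against CK, of the tested genes of 7 lists, 1 point a gene; points are spread vertically within a list for legibility only. Red points were raised, blue lowered, and grey had an adjusted p of 0.05 or more; 16 genes have coloured points, of which Pappa (1.79) is the highest and Igfbp3 (-0.75) the lowest.

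With anti-PD-1 alone against CK, 8 of the 75 genes were called, 4 lowered and 4 raised (5.33% each), where 4.08% of all genes were lowered and 4.18% raised. Of all genes, 3 were called when only these 2 groups were fitted. Igfbp3 (-0.81 ± 0.17), Stc1 (-0.61 ± 0.17), Gab1 (-0.44 ± 0.10) and Frs2 (-0.29 ± 0.08) were lowered, and Pappa (2.04 ± 0.51), Socs1 (0.93 ± 0.26), Ptpn2 (0.29 ± 0.08) and Igf2bp1 (0.30 ± 0.09) were raised in the fit of all 12 tumors. None of the core list passed there, and with PB-020 alone no gene of the 7 lists did, both by edgeR.

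Transcripts of other cell types moved with the groups in which Irs1, Igf2r, Ghr and Grb14 changed. Of 12 T cell markers, 9 were raised with anti-PD-1 and 10 with the combination, and their summed level was 38.7 to 53.3 FPKM in CK, 50.9 to 59.5 FPKM in PB-020, 67.3 to 132 FPKM in anti-PD-1 and 74.8 to 110 FPKM in the combination. All 5 tested red cell genes were lowered in both, with sums of 679 to 1556 FPKM in CK, 449 to 1046 FPKM in PB-020, 101 to 380 FPKM in anti-PD-1 and 127 to 184 FPKM in the combination. Of 12 fibroblast markers, Col3a1, Dcn, Pdgfra and Pdgfrb were lowered and Postn was raised in the combination. The list was nevertheless mixed, with 8 genes higher and 4 lower in the combination (median log2 change 0.39, beside -0.0026 over all genes) and in anti-PD-1 (median 0.47, beside 0.00047). The sums, to which Col3a1 contributed a mean of 1349 FPKM in CK, were 1920 to 2567 FPKM in CK, 1802 to 1883 FPKM in PB-020, 938 to 1863 FPKM in anti-PD-1 and 1020 to 1429 FPKM in the combination. Of 10 proliferation genes, 4 were raised with the combination and 1 with anti-PD-1, and of 12 macrophage markers 1 and 0. Colon epithelium had 1 of 3 tested genes lowered in the combination. The share of all genes was 8.35% raised and 9.6% lowered with the combination, and 4.18% and 4.08% with anti-PD-1. Skin epidermis markers (1 of 7 raised) summed to 83.9 to 124 FPKM in CK and 172 to 227 FPKM in the combination, and the endothelial (10 genes), muscle (12) and adipocyte (5) lists held no called gene by edgeR. The part of these cell types in the changes of the 4 genes was not tested.

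Igf1, Igf2 and Grb10 were highest in the tumor with the muscle transcripts, at 4.95, 5.28 and 3.10 times the mean of the other 2 anti-PD-1 tumors, and Grb14 at 1.54 times. For Igf1r, Igf2r, Insr, Irs1, Irs2 and Ghr the same ratio lay between 0.814 and 1.1. Ghr was the lowest of these on the FPKM scale, while its expected counts in anti-PD-1 tumors 1, 2 and 3 were 651, 733 and 605. Macrophage (3248 FPKM) and T cell (132 FPKM) sums were also the highest of all tumors there, as were Col1a1 (340 FPKM) and Postn (258 FPKM). In CK tumors 1, 2 and 3 the muscle sum was 70.4, 35.6 and 23.7 FPKM, with 1.01, 1.62 and 1.58 FPKM of Igf1. In PB-020 tumors it was 66.6, 52.4 and 46.0 FPKM, with 1.87, 1.28 and 1.31 FPKM of Igf1. For anti-PD-1 the sums were 664, 11.7 and 69.2 FPKM, with 5.86, 0.82 and 1.55 FPKM of Igf1. The combination had 17.1, 28.0 and 30.4 FPKM, with 1.13, 3.12 and 2.81 FPKM of Igf1. The part of muscle tissue in these 3 genes was not tested.

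**Figure D5:**
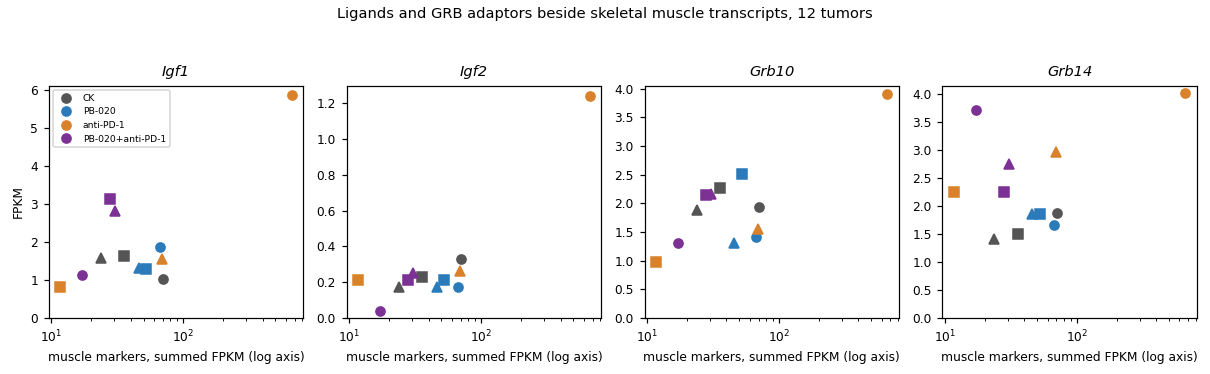
FPKM of Igf1, Igf2, Grb10 and Grb14 against the summed FPKM of 12 skeletal muscle markers (log axis) in the 12 tumors, coloured by group, with circles, squares and triangles for tumors 1, 2 and 3. Anti-PD-1 tumor 1 stands alone at 664 FPKM of muscle markers and is the highest point in every panel, while the other 11 tumors lie between 11.7 and 70.4 FPKM.

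Across the 12 tumors, profiles of the members were compared on the log2 CPM scale. Irs1 followed Igf2r (Pearson r = 0.93) and Ghr (0.90), and Grb14 ran against Ghr (-0.90) and Irs1 (-0.83). These coefficients hold the differences between groups: with each group centred on its mean they were 0.77, 0.52, -0.65 and -0.58. Igf2r also followed Ghr (0.77) and Insr (0.76), but after centring the first was 0.105 and the second 0.83. Insr followed Igf1r (0.77, and 0.55 after centring) and Irs1 (0.61, and 0.85). Among Igf1, Igf2 and Grb10, r was 0.73 to 0.80, and 0.83 to 0.93 after centring. Anti-PD-1 tumor 1 is the extreme point of these 3 genes, and over the 11 other tumors, a choice made after seeing the data, r was 0.38 for Igf1 and Igf2, 0.54 for Igf1 and Grb10 and 0.61 for Igf2 and Grb10 (0.81, 0.56 and 0.75 after centring). The tumors share libraries and scaling within each point, n is 12, and the coefficients are a description.

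The genes most like each member over the 12 tumors were taken from the 3 highest coefficients. For Irs1 they were Zer1 (r = 0.99), Rhoj (0.98) and Fkbp9 (0.97), for Ghr Pink1 (0.98), Ilvbl (0.98) and Slc25a29 (0.97), for Igf2r Hspg2 and Creb3l2 (each 0.96), and for Grb14 Hip1r (0.98), Itsn2 (0.97) and Ano1 (0.96). Chosen for their likeness to called genes, these 11 were themselves called in the combination against CK (edgeR) in the direction of their member, among them Rhoj at -0.87 ± 0.10 and Ano1 at 0.79 ± 0.13. For Igf1 they were Plcl1 (0.96), Hexa (0.93) and Pde1a (0.93), for Igf2 Itgb1bp2 (0.94), Hspb6 (0.93) and Cap2 (0.92), and for Grb10 Srgap1 (0.92), Myh10 (0.92) and Meox2 (0.91), none of which was called. Over the 11 tumors other than anti-PD-1 tumor 1, the coefficients of these 9 genes were 0.80 to 0.92. For Igf1r they were Rnf26, Cbfa2t2 and Unk (0.91 to 0.88), for Insr Tnks, Zfp74 and E330009J07Rik (0.93 to 0.92), and for Irs2 Trim8 (0.94) and Robo1 (0.91).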

How the data were processed

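RNA-seq values of 12 MC38 tumors were analysed, 3 in each of 4 groups named by the sample labels. Per the methods, libraries were read as 150-base pairs on a HiSeq X instrument, trimmed of adapters and poor reads, mapped by Bowtie2 with default parameters and quantified by RSEM against mm10 or hg19, and the submitters' processing notes name HISAT, Bowtie2 and GRCm38.p6; versions and annotation are not given in the sources used here. The expected counts deposited by the authors are unscaled RSEM estimates, and 91.0% of them were whole. The FPKM values deposited beside them divide by transcript length and library total. TPM values, deposited too and scaled to a common total, were not tested. The authors' group averages were not used.

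Expected counts were rounded, filtered with filterByExpr (minimum count 10, 13563 genes kept) and scaled by TMM in edgeR 4.0.16 (R 4.3.3). A robust quasi-likelihood model of 4 group means was fitted to all 12 tumors, with two-sided tests and Benjamini-Hochberg adjustment over all genes. The 95% intervals and standard errors come from that model and cover tumor-to-tumor spread and counting error.

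On counts simulated for the combination against CK over 13563 genes, edgeR recovered 40 of 67 genes changed 1.5-fold, 50 of 67 changed 2-fold and 60 of 66 changed 3-fold, and called 6 of 13363 unchanged genes. Alternatives were DESeq2 1.42.0, its size factors, library totals, no filter and a strict one (1 CPM in all tumors), limma 3.58.1 on log2(FPKM + 1) and log2(FPKM + 0.1), only the groups compared, the replicate block, a fold of 1.5 with unadjusted p under 0.05, the study's per-gene test on FPKM, and each tumor left out. Correlations and the combination against anti-PD-1 were also computed without anti-PD-1 tumor 1, which was chosen after seeing the data.

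Named are the 10 members, the up to 3 genes of each pathway list with the smallest p among those called in the combination against CK, and the 3 genes most correlated with each member (log2 CPM, prior count 2), except for 2 that are not reported here. Markers, the other 2 genes called in the combination, Stc1, and uncalled list genes were named after their values were seen. The members and lists were chosen with earlier results of these data known. Gene numbers of 18091 of 18211 genes matched RefSeq on GRCm38.p6, and promoter sequences are from RefSeq on that build.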

Additional observations from a re-analysis of the deposited data

How the results depend on the processing

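Counts of the 10 genes called at an adjusted p under 0.05 did not change between settings for PB-020 against CK, the PB-020 effect and the interaction, with 0 in every setting run. In the combination against CK the count was 4 and lay between 3 and 5 in every setting and every fit without 1 tumor. For anti-PD-1 against CK it was 4. It was 0 when only the groups compared were fitted, and 2 by a fold of 1.5 with an unadjusted p under 0.05. It was 1 by the study's per-gene test on FPKM, and 0 to 4 without 1 tumor. For the combination against PB-020 it was 2, and it was 1 with DESeq2's size factors in edgeR, with library totals, with no low-count filter and by the fold of 1.5, 0 by limma on log2(FPKM + 1) and on log2(FPKM + 0.1) and by the study's test, 4 with only the groups compared, and 0 to 3 without 1 tumor. The fold of 1.5 gave 1 for the combination against anti-PD-1 (Igf2 at -1.49, and -0.15 in edgeR without anti-PD-1 tumor 1, main count 0) and 1 for the anti-PD-1 effect (Grb14, main count 4), whose count was 4 or 5 without 1 tumor. The causes were not tested.

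The labels do not say whether tumors of the same number in different groups share a cage or day. Among 18 such pairs, the correlation of deviations from group means was over 0.1 in 2 (range -0.21 to 0.29). These correlations cannot show whether anything was shared. The fit with the replicate block gave 3 calls for anti-PD-1 against CK (Igf2r at an adjusted p of 0.0634), 0 for the combination against PB-020, and 4 for both the combination against CK and the anti-PD-1 effect; it changed the call of no other member against CK.

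Direction turned for values that were not called: Grb10 with anti-PD-1 against CK was -0.054 and -0.14 by limma with pseudocounts of 1 and 0.1, and -0.66 to 0.45 without 1 tumor. Without 1 tumor, Igf1 lay between -0.088 and 0.22 with PB-020 and between -0.21 and 1.42 with anti-PD-1, Igf2 between -0.42 and 1.37, Igf1r between -0.082 and 0.020 and Insr between -0.10 and 0.043 with anti-PD-1, and Grb10 between -0.21 and 0.11 with the combination. Precision was limited by 3 tumors a group for all genes, and by depth for Igf2, whose expected counts went down to 2.

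Counts over all genes moved by more than 1.5 times in several settings: with only the groups compared, anti-PD-1 against CK gave 3 genes in place of 1120 and the combination against PB-020 gave 1519 in place of 455; DESeq2 gave 1109 for the latter.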
